A study of Mus musculus with 16 samples.

Results

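The cytochrome P450 genes of families 2, 3 and 4 were examined in GFP+ intestinal stem cells (ISCs) sorted from mice after vertical sleeve gastrectomy (VSG), which removes most of the stomach, or sham surgery. A gene belonged to the group when its symbol began with Cyp2, Cyp3 or Cyp4 followed directly by a letter and was not marked as a pseudogene, which gave 79 of the 48440 genes listed in each segment table. Of these, 28 had a mean above 50 normalized counts in the duodenum, the jejunum or the ileum and are described here, namely 15 of the 49 genes of family 2, 3 of the 9 of family 3 and 10 of the 21 of family 4. The genes described were thus chosen by their measured level, and the size of the level is a description and not a result. The other 51 genes included 24 that were listed at 0 in all 16 libraries and 27 that were above 0 in some library. The lowest genes kept were Cyp2w1, with a highest segment mean of 80.0, Cyp4a32 with 94.1 and Cyp2c70 with 94.4, and the first left out were Cyp2j5 with 43.7 and Cyp4f18 with 43.5 normalized counts.

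All mice carried EGFP in the Lgr5 gene, were female and had spent 16 weeks on a high-fat diet, and no age was given in the labels. Tissue was taken 4 weeks after VSG or sham surgery, after an overnight fast and 15 minutes after a liquid meal, from 6 cm of each segment. GFP marks cells in which the Lgr5 gene is active or was recently active, so the sorted cells also included early progeny, and cells positive for CD45, CD31, annexin V or Sytox had been gated out. Each library was 1 segment of 1 mouse. The duodenum and the jejunum were represented by 4 VSG libraries (replicates 1 to 4) and 2 sham libraries (replicates 1 and 2) from the same 6 mice, and the ileum by 2 VSG libraries (replicates 4 and 5) and 2 sham libraries (replicates 1 and 2). A VSG and a sham library with the same number came from different mice.

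Cytochrome P450 enzymes are haem proteins that insert an oxygen atom into a substrate, using electrons that cytochrome P450 reductase (Por) passes to them in the endoplasmic reticulum. Members of the Cyp2b, Cyp2d, Cyp2e and Cyp3a subfamilies oxidize drugs, alcohols, steroids and bile acids, those of Cyp2c and Cyp2j convert arachidonic acid to epoxides, and those of family 4 hydroxylate fatty acids and eicosanoids at or near the omega carbon. In the small intestine these enzymes are best known from mature absorptive enterocytes, where they meet drugs and lipids from food, and the nuclear receptors PXR, CAR and PPAR-alpha are the classical inducers of Cyp3a11, Cyp2b10 and Cyp4a10.

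Most of the described genes lay in clusters of relatives, with 6 genes on chromosome 17 (Cyp4f), 6 on chromosome 19 (Cyp2c), 5 on chromosome 4 and 4 on chromosome 5. Promoter sequence from RefSeq (GRCm38.p6) was matched for 23 of the 28 genes, as 28 windows of the 250 bases before a start site. The letters CAAAGTCCA, read on either strand, are a binding sequence of HNF4-alpha, a nuclear receptor of the intestinal epithelium. They stood in 4 of the 28 windows (14.3%), against 0.384% of all 32851 promoter windows of that length. The 4 windows belonged to Cyp3a11, Cyp2c65, Cyp2c68 and Cyp2c70, and the 150 bases before each start site are shown with the match in capitals, 5′ to 3′ on the strand of the gene.
Cyp3a11 (chr5:145879855-145880004, minus strand): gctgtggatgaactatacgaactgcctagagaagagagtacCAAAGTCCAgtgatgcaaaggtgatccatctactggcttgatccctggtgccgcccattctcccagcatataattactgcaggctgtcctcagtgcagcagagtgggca
Cyp2c65 (chr19:39060856-39061005, plus strand): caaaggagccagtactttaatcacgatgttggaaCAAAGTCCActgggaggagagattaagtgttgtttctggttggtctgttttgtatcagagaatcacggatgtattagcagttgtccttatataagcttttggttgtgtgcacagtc
Cyp2c68 (chr19:39741102-39741251, minus strand): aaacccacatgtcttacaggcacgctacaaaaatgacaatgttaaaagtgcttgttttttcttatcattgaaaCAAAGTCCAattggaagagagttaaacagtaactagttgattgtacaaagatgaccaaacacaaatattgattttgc
Cyp2c70 (chr19:40187287-40187436, minus strand): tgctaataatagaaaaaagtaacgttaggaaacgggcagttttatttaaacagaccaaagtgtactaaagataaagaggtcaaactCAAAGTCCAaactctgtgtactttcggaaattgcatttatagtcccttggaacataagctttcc
The match began 109, 116, 77 and 64 bases before the start site of Cyp3a11, Cyp2c65, Cyp2c68 and Cyp2c70. The letters TATAAA, read on either strand and at any position, stood in 28.6% of the P450 windows and 12.4% of all windows. Those of AGATAA, the core of a GATA site, stood in 17.9% and 9.99%. The nuclear receptor half-sites AGTTCA (14.3% against 11.8%) and AGGTCA (14.3% against 14.02%), the core GCGTG bound by AHR and ARNT (25% against 28.2%) and the HNF1 motif (0 of 28 windows against 0.0609%) were read on both strands in the same way. Such a match is a run of letters and was not measured as a bound site. Cyp2c65, Cyp2c68 and Cyp2c70 are relatives on chromosome 19, and some genes gave several windows, so the P450 windows are not independent. The shares over all windows took in genes of any level.

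The libraries held an implied 10862195 to 63611021 reads, and 1 read was worth 0.586 to 2.07 normalized counts. A value of 0 thus leaves room for up to 3 reads, or 1.76 to 6.21 normalized counts, counting error only. A 0 can also be a transcript that the quantification did not resolve, and zeros are given here as listed. Of the jejunal libraries, VSG replicate 1 had 196951 normalized counts of Fabp6, an ileal bile acid binding protein gene, against 15.8 to 313 in the other 5. Sham replicate 1 of the jejunum was listed at 0 for Lgr5, as was sham replicate 1 of the ileum (152 to 6565 in the other libraries), and its total of 47103234 normalized counts exceeded the 33473755 to 34476853 of the other jejunal libraries. Jejunal results are therefore also given without these libraries. Read sharing limits some close relatives, since for genes such as Cyp4a32 (25.7% of its 85-base windows, most of them with Cyp4a10), Cyp2c68 (24.2%, with Cyp2c40), Cyp4a10 (15.5%), Cyp4f16 (12.99%, with Cyp4f37), Cyp2c66 (11.3%) and Cyp2c65 (9.49%, with each other) and Cyp3a25 (8.15%, with Cyp3a59) some reads could not be assigned by sequence alone, while 13 of the 28 genes shared no window.

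To determine whether the P450 genes differed after VSG, each segment was tested across all genes with a mean above 10 normalized counts with limma, a linear model of log2(normalized count + 1) with variances moderated across genes. The thresholds of the study (p under 0.05, adjusted p under 0.2, absolute log2 fold change above 0.5 and mean above 50) were applied here. No single P450 gene passed them in any segment. The paper used them with DESeq2 and reported far more genes per segment than limma called (4 duodenal, 2 jejunal and 0 ileal genes). A P450 gene missing from the limma calls is therefore not shown to be unchanged, or to be missing from the paper's calls. In the duodenum 0 of 28 were called, against 0.0237% of all 16867 genes, and in the jejunum 0 of 28 against 0.0126% of 15857. The smallest adjusted p of a P450 gene was 0.292 in the duodenum and 0.404 in the jejunum (limma, Benjamini-Hochberg). As a group, however, the genes had lower values after VSG in both segments. In the duodenum 25 of 28 were lower (49.3% of all genes tested), 11 of them with an unadjusted limma p under 0.05 (3.48% of all genes), and 0 were higher at that level (2.79%). All 4 VSG libraries lay below both sham libraries for 17 of the 28 (8.01% of all genes), and above both for 0 (6.44%). The median log2 fold change was -1.15, beside 0.0086 over all genes. Without sham replicate 1 of the duodenum, 24 of 28 were lower, 4 of them with a p under 0.05 (as were 3.99% of all genes), and the median was -0.86.

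In the jejunum 24 of 28 were lower (45.0% of all genes), 12 with an unadjusted limma p under 0.05 (2.4%) and 0 higher at that level (3.63%), and for 14 all VSG libraries lay below both sham libraries (6.21%) and for 0 above both (6.59%). The median log2 fold change was -1.33, beside 0.11 over all genes. These counts rested in part on the libraries that stand apart. Without sham replicate 1, 23 of 28 were lower, 4 of them with a p under 0.05 (as were 2.59% of all genes). Without both VSG replicate 1 and sham replicate 1, 22 of the 27 genes tested were lower, 3 with a p under 0.05 (as were 3.68% of all genes), with a median of -0.59, and Cyp3a11 passed the thresholds (log2 fold change -2.77, adjusted p = 0.158 from limma), as did 0.308% of all 15575 genes. That fit set 3 VSG libraries against 1 sham library, which is assumed to vary like the VSG libraries. Without sham replicate 2 instead, the sham group was the single library listed at 0 for Lgr5. The thresholds were then passed by 12 of 28 P450 genes and by 17.4% of all 15609 genes, and the median was -2.0, beside 0.33 over all genes.

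The size of most jejunal differences moved with sham replicate 1. Without that library the log2 fold change was -3.14 for Cyp3a11, -1.86 for Cyp4b1, -1.36 for Cyp2j6, -1.19 for Cyp4a10, -1.16 for Cyp2d22, -0.81 for Cyp2d26, -0.75 for Cyp3a25, -0.55 for Cyp4v3, -0.46 for Cyp2c65 and -0.18 for Cyp4f14. Without sham replicate 2 the same genes ranged from -4.19 (Cyp3a11) to -1.27 (Cyp2c65). Without both VSG replicate 1 and sham replicate 1 they ranged from -2.77 (Cyp3a11) to -0.20 (Cyp4f14). For all of these 10 genes except Cyp4v3 and Cyp4f14, the sign could not turn in these 3 fits. Their jejunal VSG libraries all lay below both sham libraries. Cyp4f13, not among the 10, was at 0.52 without sham replicate 1, at -0.53 without sham replicate 2 and at 0.72 without both libraries that stand apart.

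The duodenal and jejunal libraries came from the same 6 mice, so the segments are not independent. The 12 genes for which all VSG libraries lay below both sham libraries in the duodenum and in the jejunum were Cyp2d26, Cyp2j6, Cyp3a25, Cyp2c65, Cyp4b1, Cyp2b10, Cyp3a11, Cyp4a10, Cyp2c66, Cyp2d22, Cyp2j9 and Cyp2c55. A further 5 did so in the duodenum alone (Cyp4v3, Cyp4f16, Cyp2c68, Cyp2u1 and Cyp2c44) and 2 in the jejunum alone (Cyp2s1 and Cyp2c70). How many of all genes had this order in both segments at once was not counted. The shares for single segments cannot supply that background, because both came from the same 6 mice. The 12 genes are therefore a list and not an excess over other genes. Of the 28 genes, 4 had passed the mean of 50 through 1 surgery group only (Cyp2c44 and Cyp2c70 through sham, Cyp4f17 and Cyp2w1 through VSG), so their differences follow in part from the choice. Among the other 24, 22 were lower in the duodenum and 22 in the jejunum, with median log2 fold changes of -1.04 and -1.36.

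**Figure D1:**
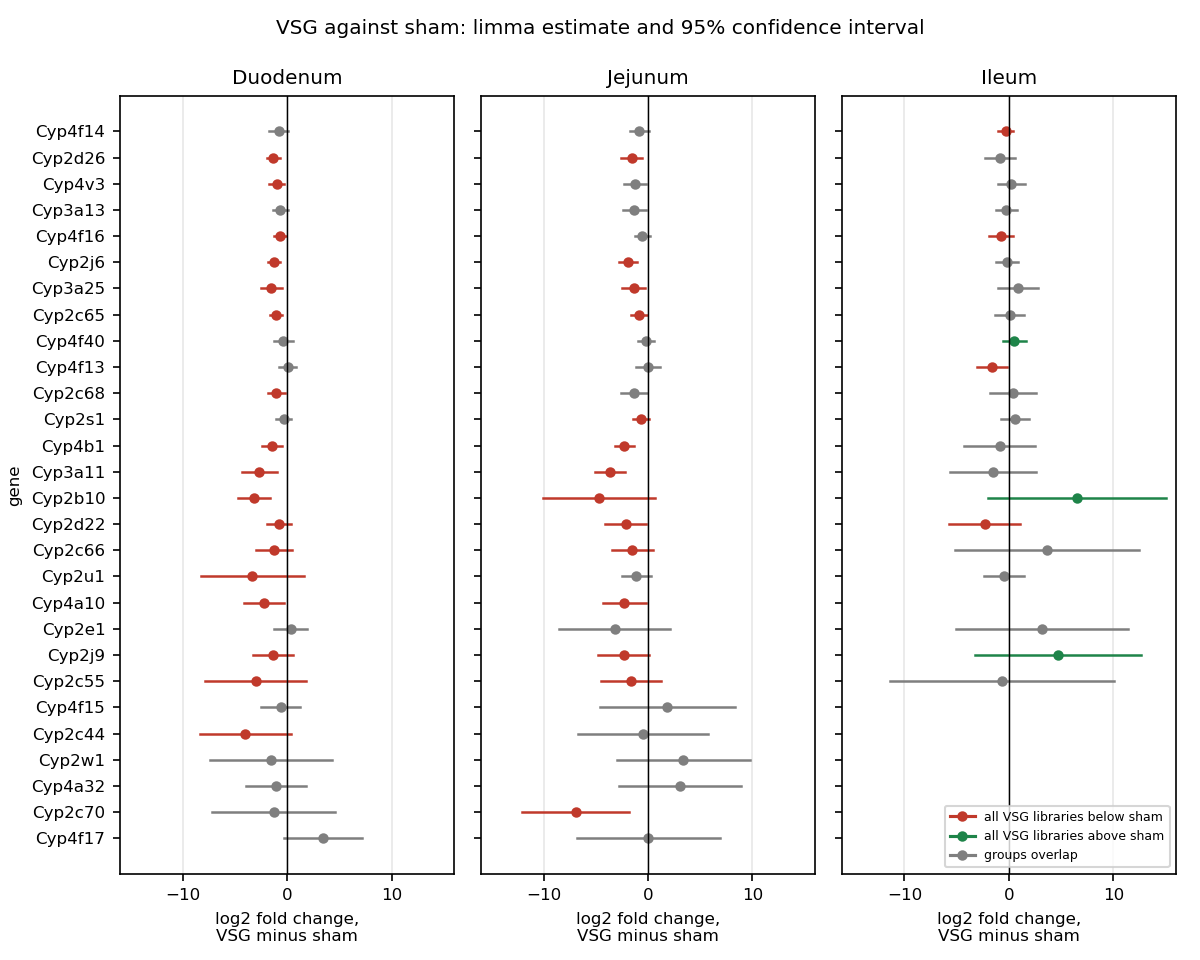
Log2 fold change of each P450 gene after VSG (x axis, limma on log2(normalized count + 1)) with its 95% confidence interval in the duodenum, jejunum and ileum, genes in order of level per length and missing points not tested. Of 28 points, 25 lie left of 0 in the duodenum and 24 in the jejunum, against 11 of 21 in the ileum, and red marks genes for which all VSG libraries lay below all sham libraries.

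Nearly all enzymes of drug and steroid oxidation had lower values after VSG in the upper segments. Of these 7 genes (Cyp2b10, Cyp2d22, Cyp2d26, Cyp2e1, Cyp3a11, Cyp3a13 and Cyp3a25), 6 were lower in the duodenum (4 with an unadjusted limma p under 0.05) and 7 in the jejunum (5 at that level), and the median log2 fold changes were -1.32 and -2.15. Over all genes, 49.3% and 45.0% were lower in these segments, 3.48% and 2.4% at that level. The genes of each role are part of the 28 counted above, so their counts are not separate results. Per-library values of a gene that are joined by the word against give the VSG libraries first and the sham libraries second, each in order of replicate number. Cyp3a11, the main inducible Cyp3a enzyme of mouse liver and a hydroxylase of drugs and bile acids, had 1754, 278, 917 and 237 normalized counts in the duodenum of VSG replicates 1 to 4, with 3917 and 3329.9 after sham surgery. Its jejunal values were 149.6, 424, 366 and 474 after VSG and 5921 and 2857 after sham surgery. All VSG libraries lay below both sham libraries in each segment, although VSG replicate 1 of the duodenum stood well above the other VSG libraries. The mean was 4.55-fold lower after VSG in the duodenum (log2 fold change -2.66 ± 0.76, standard error, adjusted p = 0.517 from limma) and 12.4-fold lower in the jejunum (-3.66, standard error 0.64, adjusted p = 0.404 from limma). The exact permutation p was 0.133 in the duodenum and 0.0667 in the jejunum (two-sided), and 0.0667 is the smallest that 4 libraries against 2 allow.

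Cyp2b10, a drug-metabolizing enzyme and the standard target gene of CAR, had 203, 214, 378 and 145 in the duodenum after VSG and 3669 and 1079.8 after sham surgery. In the jejunum it was at 0, 630.3, 1082 and 668 in VSG replicates 1 to 4, with 7711 and 1934 after sham surgery. The highest VSG library lay below the lowest sham library in both segments, and sham replicate 1 was several-fold above sham replicate 2. The duodenal mean was 10.1-fold lower after VSG (log2 fold change -3.17, standard error 0.67, adjusted p = 0.373 from limma, exact permutation p = 0.0667), and the log2 fold change was -2.28 without sham replicate 1 and -4.05 without sham replicate 2. In the latter fit, with 1 sham library, the gene passed the thresholds (adjusted p = 0.193 from limma), as did 0.28% of all genes. The jejunal log2 fold change of -4.72 (adjusted p = 0.760 from limma, with a standard error of 2.40) included a library listed at 0, so its size depends on the pseudocount.

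Cyp2d26, one of the most abundant P450 transcripts here, had 4174, 5510.2, 6663 and 3823 in the duodenum after VSG and 14715 and 10263 after sham surgery, and 3670.2, 7785, 6718 and 5872 against 29089 and 10144 in the jejunum. Its groups did not overlap in either segment (2.48-fold and 3.26-fold lower after VSG, log2 fold changes -1.32 ± 0.29 and -1.57 ± 0.46 (standard error), adjusted p = 0.373 and 0.760 from limma). Cyp2d22, the mouse relative most often set beside human CYP2D6, had 512, 656, 615 and 343 against 1223 and 659 in the duodenum and 113, 651, 407 and 368 against 2852 and 726 in the jejunum. The duodenal gap between VSG replicate 2 and sham replicate 2 was small, and the log2 fold changes were -0.80 and -2.15 (adjusted p = 0.880 and 0.760 from limma).

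The remaining Cyp3a genes had log2 fold changes nearer to 0 than Cyp3a11. Cyp3a25 had 1520.1, 3003, 4090.4 and 1926 after VSG and 10349 and 4650.4 after sham surgery in the duodenum, and 1742, 5295, 4666 and 3422 against 13924 and 5847 in the jejunum (2.85-fold and 2.61-fold lower, log2 fold changes -1.50 and -1.37, adjusted p = 0.534 and 0.760 from limma). Cyp3a13, the most abundant Cyp3a transcript in every segment, had 4735, 11382, 8555 and 8072 against 14253 and 10422 in the duodenum and 4275, 11610.5, 4637 and 9009 against 24089.9 and 11388 in the jejunum. Its groups overlapped in both segments (VSG replicate 2 above sham replicate 2), with log2 fold changes of -0.64 and -1.30 (adjusted p = 0.852 and 0.760 from limma). Cyp2e1, which oxidizes ethanol, was the one gene of these 7 that was not lower in the duodenum (0.34, standard error 0.70, adjusted p = 0.930 from limma), and its groups overlapped there.

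**Figure D2:**
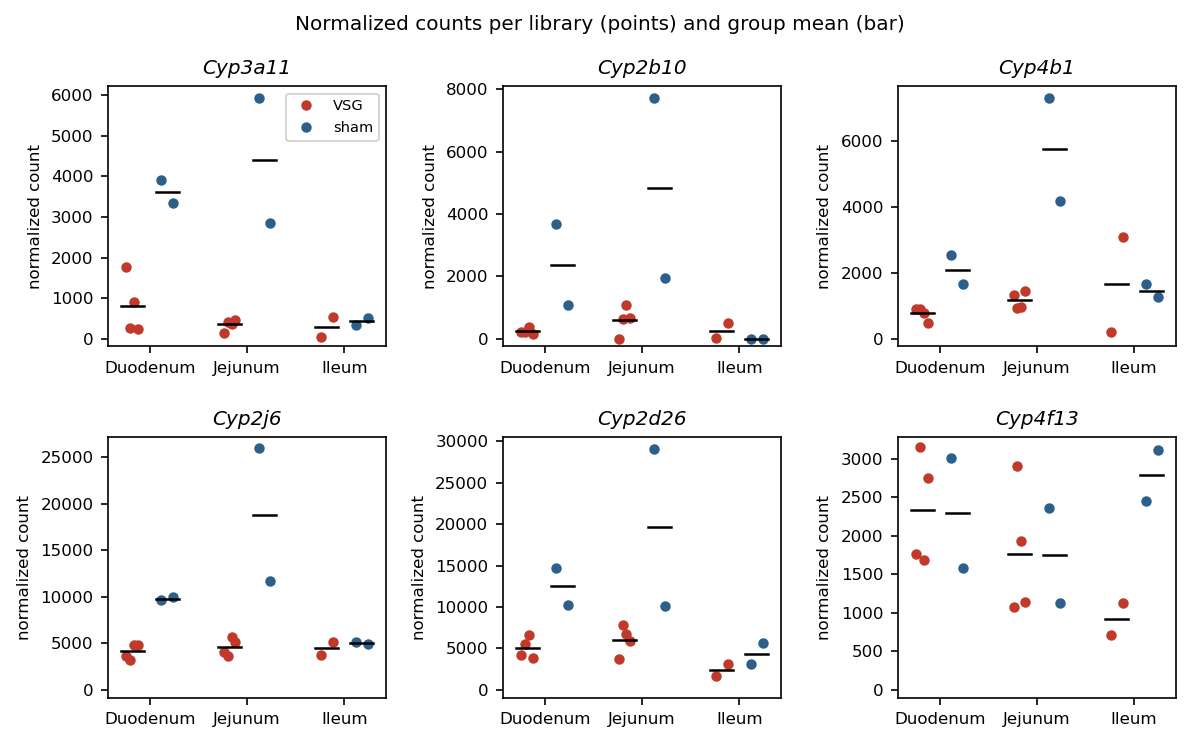
Normalized counts (y axis, linear, a different range in each panel) of 6 P450 genes in the duodenum, jejunum and ileum, with 1 point per library, VSG in red and sham in blue, and a bar at the group mean. For 5 of the genes the VSG points lie below both sham points in the duodenum and the jejunum, and for Cyp4f13 they overlap there.

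The 8 genes of Cyp2c and Cyp2j, subfamilies best known for epoxygenases, were all lower after VSG in both upper segments, with median log2 fold changes of -1.28 and -1.56. In the duodenum 3 of the 8 had an unadjusted limma p under 0.05, as did 4 of the 8 in the jejunum. Over all genes, 3.48% and 2.4% were lower at that level. Without Cyp2c44 and Cyp2c70, which reached the mean of 50 through the sham group alone, 6 of 6 were lower in each of these segments, 3 of them with a p under 0.05, and the medians were -1.26 and -1.56. Cyp2j6, the more abundant Cyp2j transcript and one known from mouse small intestine, had 3679, 3215, 4836 and 4805 normalized counts in the duodenum after VSG and 9614 and 10001 after sham surgery. In the jejunum the VSG libraries had 4038, 3669.7, 5669.9 and 5134 and the sham libraries 25997 and 11686. Both sham libraries stood far above the highest VSG library in each segment. The duodenal means were 4134 ± 815 (SD, n = 4) and 9807 ± 274 (SD, n = 2), a 2.37-fold difference (log2 fold change -1.27 ± 0.25, standard error, adjusted p = 0.292 from limma), which had the smallest adjusted p of the P450 genes in that segment. In the jejunum the difference was 4.07-fold (-1.94, standard error 0.38, adjusted p = 0.651 from limma), and the exact permutation p was 0.0667 in both segments.

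Cyp2c65, an intestinal Cyp2c enzyme, had 2935, 3857, 4512 and 3804 after VSG and 8439.9 and 7020.5 after sham surgery in the duodenum, and 3049, 2439.9, 2901 and 3423 against 7068 and 4027 in the jejunum. The groups did not overlap in either segment (2.05-fold and 1.88-fold lower, log2 fold changes -1.04 and -0.86, adjusted p = 0.434 and 0.760 from limma). Cyp2c68 had 1119, 1542, 2473 and 2298 against 4267 and 3103 in the duodenum, without overlap, and 755, 3388, 1333 and 1911 against 5063 and 3307 in the jejunum, where VSG replicate 2 lay just above sham replicate 2 (log2 fold changes -1.04 and -1.36). Cyp2j9, a low transcript, had 421, 95.1, 129 and 149.6 against 433 and 430.1 in the duodenum and 93.5, 124, 67.8 and 179 against 716 and 429.6 in the jejunum (log2 fold changes -1.37 and -2.34), and in the duodenum VSG replicate 1 all but reached the sham values. Cyp2c70, which hydroxylates bile acids to muricholic acids in mouse liver, was at or near 0 in most libraries. It was listed at 0, 7.58, 0 and 0 in the jejunum of VSG replicates 1 to 4 and at 466 and 92.7 after sham surgery, and at 0, 1.25, 0 and 59.6 against 69.5 and 0 in the duodenum. It was kept only because of its jejunal sham libraries. The remaining genes Cyp2c55, Cyp2c66 and Cyp2c44 had log2 fold changes of -3.01, -1.25 and -3.98 in the duodenum and -1.63, -1.48 and -0.49 in the jejunum, with unadjusted limma p-values all above 0.05.

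Of the omega hydroxylases of family 4, 8 of 10 were lower in the duodenum (4 with an unadjusted limma p under 0.05) and 7 of 10 in the jejunum (3 at that level), with median log2 fold changes of -0.76 and -0.37, or -0.81 and -0.53 over the 9 without Cyp4f17. The shares of all genes lower at that level were 3.48% and 2.4%. Cyp4b1, a hydroxylase of fatty acids that also activates some protoxins, had 921, 914, 774 and 471 in the duodenum after VSG and 2542 and 1664 after sham surgery. Its jejunal values of 1319, 948, 967 and 1459.7 after VSG and 7323 and 4191 after sham surgery gave the smallest limma p of the 10 genes there. The mean was 2.73-fold and 4.91-fold lower after VSG (log2 fold change -1.47 with a standard error of 0.42 and -2.26 with a standard error of 0.40, adjusted p = 0.517 and 0.404 from limma). Cyp4a10, a fatty acid omega hydroxylase and a standard target gene of PPAR-alpha, had 1287, 108, 407 and 321 against 1819 and 1587 in the duodenum and 163, 488, 296 and 124 against 2459 and 529 in the jejunum, without overlap in either segment. Its log2 fold changes were -2.21 and -2.29 (standard errors 0.84 and 0.92, adjusted p = 0.681 and 0.760 from limma), and in the duodenum VSG replicate 1 stood far above the other VSG libraries.

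Cyp4f14, a leukotriene B4 omega hydroxylase and the most abundant P450 transcript of all 16 libraries, had 8401, 18340.5, 25611 and 16648 after VSG and 33549.8 and 23587 after sham surgery in the duodenum, and 22599, 24770.1, 18293 and 21426 against 62179 and 24574 in the jejunum. The groups overlapped in both segments, and the log2 fold changes of -0.81 and -0.85 had adjusted p-values of 0.832 and 0.760 (limma). Cyp4v3, the mouse counterpart of human CYP4V2, a fatty acid hydroxylase mutated in a crystalline retinal dystrophy, had 5948, 8509, 10356 and 6314 against 20977 and 10808 in the duodenum, just without overlap, and 7025, 17209, 10815 and 12745 against 45221 and 16674 in the jejunum, with overlap (log2 fold changes -0.99 and -1.27, adjusted p = 0.591 and 0.760 from limma).

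The other abundant Cyp4f genes had log2 fold changes nearer to 0. Cyp4f16 had 2357, 2631, 2822 and 3366 against 4934 and 4156 in the duodenum and 4613, 3324, 5214 and 3669.6 against 7069 and 5057 in the jejunum (log2 fold changes -0.71 and -0.53). For Cyp4f40 the values were 1112, 2553, 2453 and 2454 against 3142 and 2166 in the duodenum and 3868, 2583, 2374 and 2978 against 3474 and 3269.5 in the jejunum (-0.36 and -0.22), and the groups overlapped in both segments. Cyp4f13 had 1765, 3154, 1684 and 2751 against 3013 and 1586 in the duodenum and 1082, 2909, 1936 and 1147 against 2356 and 1133 in the jejunum, with log2 fold changes of 0.044 (95% confidence interval -0.81 to 0.90) and -0.0068 (-1.17 to 1.16). These intervals leave room for a difference in either direction, so they do not show that Cyp4f13 was alike after both operations. The low genes Cyp4f15, Cyp4f17 and Cyp4a32 had fitted values on both sides of 0, and Cyp4f17 was the highest of all P450 genes in the duodenum relative to sham, at 3.48 (standard error 1.66, adjusted p = 0.832 from limma), with 63.1 to 256 normalized counts after VSG and 72.1 and 1.05 after sham surgery. Cyp4f17 had reached the mean of 50 through the VSG group alone, so that a higher value follows in part from the choice. Its call without sham replicate 1 (adjusted p = 0.186 from limma, 1.54% of all genes called) rested on the 1 sham library at 1.05.

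Of the 3 genes outside these roles, Cyp2s1, which is linked to retinoid metabolism, had 3585, 2483, 2863 and 5728 against 4513 and 4312 in the duodenum, with overlap, and 2643, 3056, 1951 and 3528 against 4189 and 4328 in the jejunum, without (log2 fold changes -0.34 and -0.64, adjusted p = 0.883 and 0.760 from limma). Cyp2u1, a hydroxylase of long-chain fatty acids, had log2 fold changes of -3.32 and -1.13, the first with a VSG library listed at 0. Cyp2w1 was above 0 in only 2 duodenal and 2 jejunal libraries.

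In the ileum, with 2 libraries against 2, the P450 genes showed no common direction. Of the 21 genes tested, 0 were called (0.0% of 13853 genes), 11 were lower (43.0% of all genes) and 10 higher, 1 lower with an unadjusted limma p under 0.05 (1.19%) and 0 higher at that level (2.09%), and the median log2 fold change was -0.19, beside 0.24 over all genes. The VSG libraries lay below both sham libraries for 4 genes (11.6%), namely Cyp4f14, Cyp4f16, Cyp4f13 and Cyp2d22, and above them for 3 (17.0%), namely Cyp4f40, Cyp2b10 and Cyp2j9. Cyp4f13, the gene with the p under 0.05, had 713 and 1126 normalized counts in VSG replicates 4 and 5 and 2450.01 and 3116 in the sham replicates (log2 fold change -1.62 ± 0.58, standard error, adjusted p = 0.736 from limma, exact permutation p = 0.333, the smallest that 2 against 2 allow). Cyp2b10 was at 15.7 and 495 after VSG and listed at 0 in both sham libraries, and Cyp2j9 was at 239.8 and 301 after VSG and 0 and 109.7 after sham surgery. Cyp3a11, at 41.7 and 527 against 340.1 and 522, and Cyp4b1, at 197 and 3107 against 1666 and 1265, had 1 VSG library far below the other and groups that overlapped.

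Among the abundant genes of the ileum, Cyp4f14 had 20261 and 25991 after VSG and 30008 and 27018 after sham surgery (log2 fold change -0.31), Cyp2j6 had 3717 and 5187 against 5103 and 4893 (-0.19), and Cyp2d26 had 1631 and 3169 against 3092 and 5612 (-0.87). The 95% confidence intervals were wide, reaching from -5.62 to 2.64 for Cyp3a11 and from -2.31 to 0.57 for Cyp2d26, and both include the log2 fold changes of these genes in the upper segments. Calls appeared when 1 VSG library was left to stand for its group, assumed to vary like the sham libraries. Without VSG replicate 4, Cyp2b10 passed the thresholds as higher after VSG (adjusted p = 0.0641 from limma), as did 4.98% of all 12546 genes in either direction. Without VSG replicate 5, Cyp4b1 passed as lower and Cyp2c66 as higher, the latter at 161 against 2 sham libraries listed at 0, along with 4.63% of all 13617 genes.

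**Figure D3:**
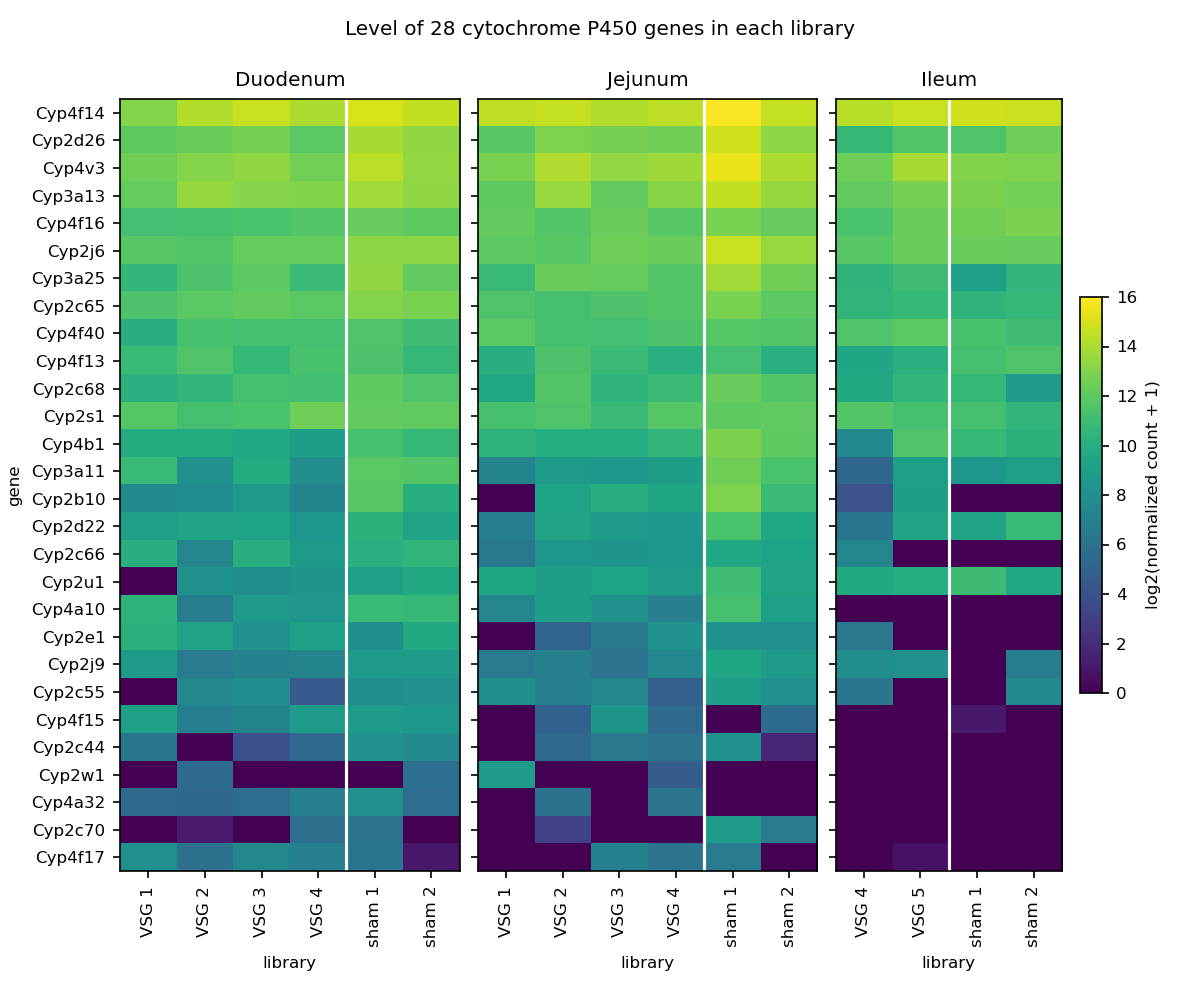
Heat map of log2(normalized count + 1) of the 28 P450 genes (rows, in order of level per length) in the 16 libraries (columns), by segment, with a white line between VSG and sham libraries. Sham replicate 1 of the jejunum has the brightest column for the abundant genes, and the lower rows of the ileum are at or near 0.

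Whether the difference after VSG was itself unequal between jejunum and duodenum was tested on the log2 value in the jejunum less that in the duodenum of the same animal. Of the 28 P450 genes, 0 had an unadjusted limma p under 0.05 (4.1% of 14718 genes) and 0 an adjusted p under 0.2. The smallest p was that of Cyp2c70 (log2 difference -5.64, standard error 3.04, adjusted p = 0.948 from limma), followed by Cyp2j6 (-0.67, standard error 0.39) and Cyp3a13 (-0.65, standard error 0.39). The ileum was not tested against the other segments because only 1 VSG mouse was shared.

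Levels were next compared between the genes and the segments, as CPM, which are normalized counts scaled to a library total of 1000000, divided by transcript length in kilobases. The 3 tables had been normalized separately, so these levels across segments are descriptions without a test. Cyp4f14 had the highest level of the P450 genes in 16 of 16 libraries, at a mean of 196 CPM per kilobase in the duodenum (79.7 to 292), 346 in the jejunum (240.0 to 594) and 507 in the ileum (415 to 541). Cyp2d26, Cyp4v3 and Cyp3a13 followed, with means over the segments of 112, 95.2 and 84.9 CPM per kilobase, and each was among the top 5 in 14 or 15 libraries. The rise of Cyp4f14 toward the ileum depended on the scale, since its ileal mean was 1.47 times the jejunal mean in CPM and 0.891 times in normalized counts as deposited. The next genes in level were Cyp4f16 (64.9), Cyp2j6 (52.8), Cyp3a25 (49.9) and Cyp2c65 (47.5). From Cyp2d26 to Cyp2c65, the range over libraries of each gene overlapped with that of its neighbour in every segment. Cyp3a11 and Cyp2b10 were well below these, at 13.2 and 12.7 CPM per kilobase.

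Along the intestine, 20 of the 28 genes had a higher mean CPM in the jejunum than in the duodenum (16 in values as deposited), and 8 of them were higher in CPM there in each of the 6 mice (Cyp4v3, Cyp2d26, Cyp2j6, Cyp3a25, Cyp4f16, Cyp4f40, Cyp4b1 and Cyp2u1), against 5 in values as deposited. How many of all genes had such orders between segments was not counted. The counts of this paragraph therefore describe these genes and cannot show an excess over other genes. The counts above include jejunal VSG replicate 1, the library with the high Fabp6 value. Without it the ratio of jejunal to duodenal mean CPM went from 6.62 to 0.42 for Cyp2w1 and from 0.96 to 1.16 for Cyp2c44. It went from 0.88 to 1.0005 for Cyp4a10 and from 0.98 to 1.001 for Cyp2c65. The ratio of ileal to jejunal mean CPM of Cyp2j9 went from 1.06 to 0.95. Cyp4f16 and Cyp2u1 had the same order in CPM in every mouse with those segments, lowest in the duodenum and highest in the ileum, with 31.2, 59.1 and 104 CPM per kilobase for Cyp4f16 and 1.74, 4.92 and 11 for Cyp2u1. For Cyp4f14, Cyp4f16, Cyp4f40 and Cyp2u1 all ileal libraries lay above all duodenal libraries in CPM. In values as deposited this held for 0 genes, and 0 genes were higher in the ileum than in the jejunum in each of the 3 mice. Among the drug and steroid enzymes, Cyp3a11 had 15.1 and 17.9 CPM per kilobase in the duodenum and jejunum and 6.69 in the ileum, and Cyp3a25 had 43.4, 76.0 and 30.3, whereas Cyp2d22 had 4.97, 7.65 and 12.8 with wide spread in the ileum. Cyp4a10 was listed at 0 in all 4 ileal libraries, as were Cyp4a32, Cyp2c44, Cyp2c70 and Cyp2w1, and Cyp2e1 was above 0 in 1 of them. In each of the 3 mice with both segments, 13 genes were lower in the ileum than in the jejunum, among them Cyp3a11, Cyp2b10, Cyp4a10, Cyp3a13, Cyp3a25, Cyp2c65 and Cyp2d26. The count of genes higher in the ileum depended on the scale, at 8 of 23 against the jejunum and 12 of 23 against the duodenum in CPM and 3 and 6 in the values as deposited.

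**Figure D4:**
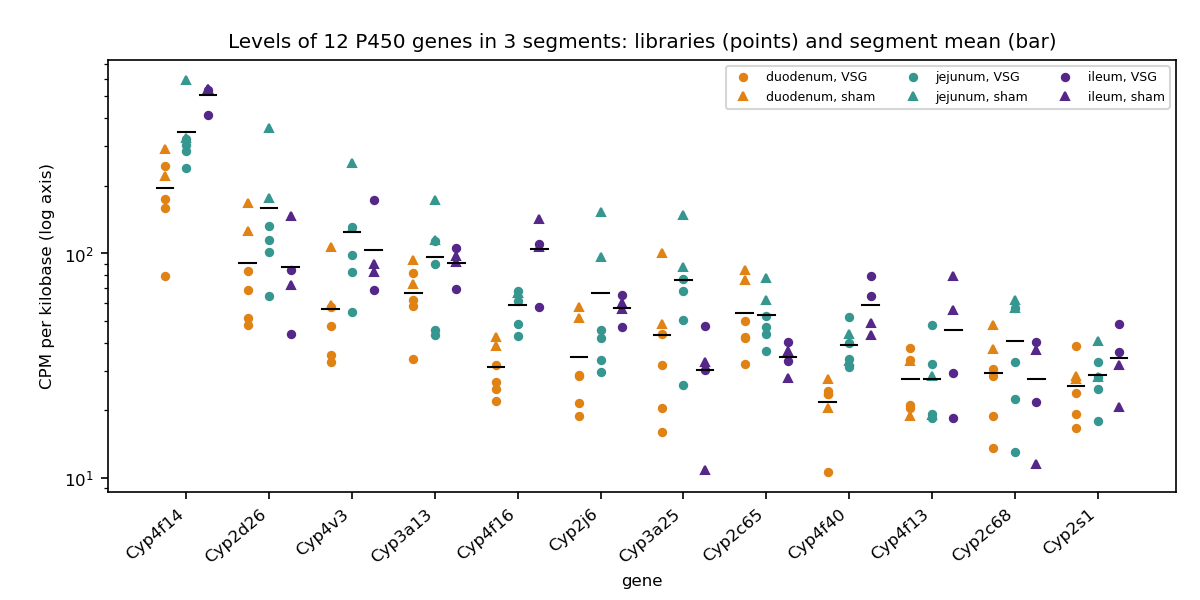
Level in CPM per kilobase (y axis, log scale) of the 12 highest P450 genes, with 1 point per library (circles VSG, triangles sham) and a bar at the segment mean, coloured by segment. Cyp4f14 is the highest gene in all 3 segments, and Cyp4f16 steps up from a mean of 31.2 in the duodenum to 104 in the ileum, a rise of 3.35 times that is 1.59 times in values as deposited.

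The 7 genes listed as partners of P450 enzymes in general were Por, Cyb5a, Cyb5b, Cyb5r3, Pgrmc1, Fdx1 and Fdxr. All 7 had log2 fold changes below 0 in both upper segments. An unadjusted limma p under 0.05 was reached by 1 of 7 in the duodenum and 3 of 7 in the jejunum, beside the 3.48% and 2.4% of all genes, and the median log2 fold changes were -0.65 and -0.99 (in the ileum 3 of 7 were lower, median 0.10). Por, the reductase that serves all microsomal P450 enzymes, had 3082 to 5836 normalized counts after VSG and 8789 and 8853 after sham surgery in the duodenum, and 3875 to 7176 against 9696 and 14153 in the jejunum, without overlap (log2 fold changes -0.95 and -1.29, adjusted p = 0.522 and 0.760 from limma). Cyb5b and Cyb5r3, a cytochrome b5 and its reductase, had log2 fold changes of -0.56 and -0.66 in the duodenum and -0.99 and -1.39 in the jejunum. The genes of haem synthesis and breakdown divided evenly, with 5 of 10 lower in the duodenum and 5 of 9 in the jejunum, 0 of them with a p under 0.05 in either direction.

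Among the 15 regulators of P450 genes listed, 10 were lower in the duodenum and 9 in the jejunum, with medians of -0.067 and -0.39. Hnf4a, the most abundant, had log2 fold changes of 0.34 and 0.37, and Nr1i2, which encodes PXR, had 0.094 and -0.39 (all with unadjusted limma p-values above 0.05). The regulators with a p under 0.05, named after their values were seen, were Nr1i3 (CAR) and Ppara in the duodenum and Ppara in the jejunum. Nr1i3 had 1707 to 3153 normalized counts after VSG and 4929 and 5927 after sham surgery in the duodenum (log2 fold change -1.03, adjusted p = 0.534 from limma), and 5.57 to 2668 against 3174 and 7938 in the jejunum (-3.25, p above 0.05). Ppara had 229 to 1440.4 against 1674 and 7862 in the duodenum (-2.43, adjusted p = 0.613 from limma) and 449 to 1268 against 1624 and 3488 in the jejunum (-1.64, adjusted p = 0.760 from limma). The P450 genes of other families are mostly enzymes of sterol, steroid and vitamin metabolism. Of the 22 listed, 2 of 6 tested were lower in the duodenum and 3 of 8 in the jejunum, 0 had an unadjusted p under 0.05, and the medians were 0.22 and 0.14. Cyp51, an enzyme of cholesterol synthesis, had log2 fold changes of 0.31 in the duodenum and 0.67 in the jejunum. Those of Cyp27a1, the mitochondrial sterol hydroxylase, were 0.20 and 0.12.

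Markers of mature enterocytes moved with the P450 genes. In bulk samples, fewer cells of a type and less RNA per cell cannot be told apart. All 12 enterocyte markers were lower after VSG in the duodenum (7 with an unadjusted limma p under 0.05, median log2 fold change -1.11) and in the jejunum (4, median -1.47), and 6 of 12 in the ileum (median -0.069). In the duodenum their summed level was 7655 to 15654 CPM after VSG and 16937 and 23646 after sham surgery. It was 17329 to 30982 against 27083 and 51605 in the jejunum and 19624 and 36193 against 33684 and 34977 in the ileum, and the groups overlapped in both. Alpi, Lct, Apoa4 and the other 9 markers were above 0 in all 16 libraries. The summed level of all 79 P450 genes of the group was likewise lower after VSG in both upper segments. In the duodenum it was 1057, 1482, 1763 and 1409 CPM after VSG and 2882 and 2193 after sham surgery, in the jejunum 1881, 2683, 2081 and 2333 against 5547 and 3391, and in the ileum 2338 and 3645 against 3004 and 3275.

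Set against the enterocyte markers, the P450 genes as a sum overlapped between the surgeries in the duodenum and jejunum, whereas in the ileum both VSG libraries lay above both sham libraries. The summed P450 level was 11.1 to 14.2 per 100 of the enterocyte sum in the duodenum after VSG and 12.2 and 12.9 after sham surgery, 8.66 to 12 against 10.7 and 12.5 in the jejunum, and 10.1 and 11.9 against 8.59 and 9.72 in the ileum. Over all 16 libraries it stayed between 8.59 and 14.2. In a fit of levels relative to the mean of the markers, chosen after the values were seen, 14 of 28 P450 genes were lower in the duodenum and 14 of 28 in the jejunum, with medians of 0.063 and 0.026, while the median of all genes moved to 1.22 and 1.46.

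Some single genes had lower values after VSG relative to the markers. In that fit 33.3% of all genes in the duodenum passed the thresholds in either direction. The duodenal median over all genes was 1.22, and 0.19% of all genes were lower with an unadjusted limma p under 0.05. Cyp2b10 and Cyp3a11 passed the thresholds as lower in the duodenum (log2 fold changes -1.96 and -1.45, adjusted p = 0.121 and 0.129 from limma). Their jejunal values were -3.37 and -2.31 (adjusted p = 0.215 and 0.202 from limma). Cyp3a11 stood at 0.0241 to 0.0689 per 100 of the enterocyte sum in the jejunal VSG libraries and at 0.244 and 0.313 in the sham libraries. In the duodenum the same ratio was 0.483, 0.0440, 0.125 and 0.0509 after VSG and 0.320 and 0.410 after sham surgery, with VSG replicate 1 above both sham libraries. Cyp2b10 was at 0.0312 to 0.0559 against 0.133 and 0.30 in the duodenum and at 0 to 0.182 against 0.212 and 0.317 in the jejunum, without overlap. Cyp4f13 and Cyp4f17 were called as higher in the duodenum in that fit, with Cyp4f13 at 1.25 (adjusted p = 0.114 from limma). The part of the enterocyte markers in the P450 values was not tested further.

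**Figure D5:**
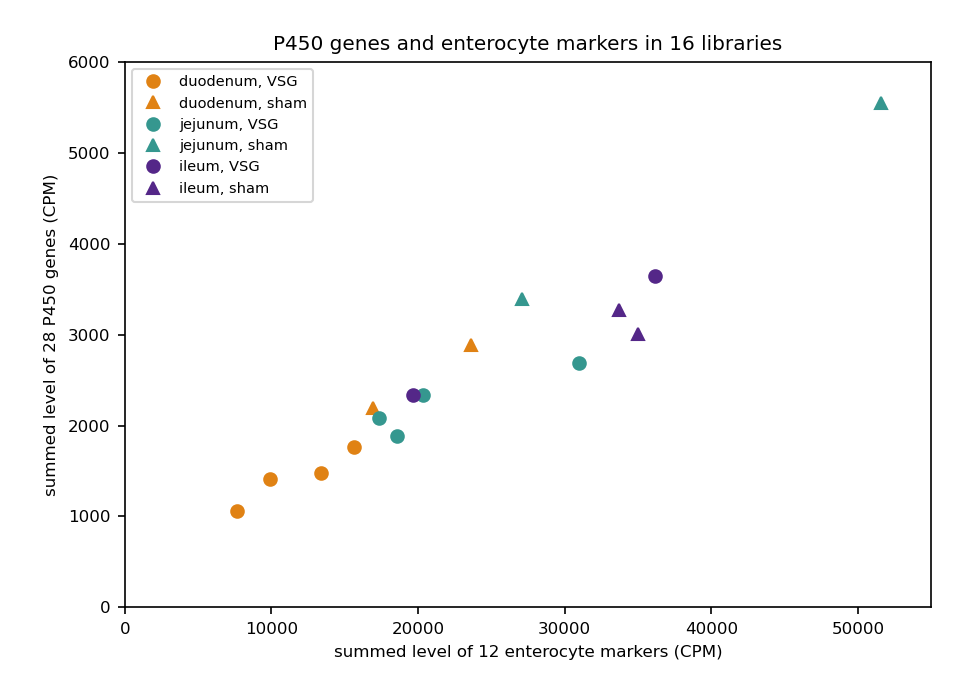
Summed level of all 79 P450 genes of the group (y axis, CPM, labelled as 28 genes in the figure) against the summed level of 12 enterocyte markers (x axis, CPM), 1 point per library, coloured by segment, circles for VSG and triangles for sham. The points lie along a common band, from 1057 CPM in duodenal VSG replicate 1 to 5547 in jejunal sham replicate 1, which also has the highest enterocyte sum.

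Markers of other cells were also followed. Tuft cell markers were higher after VSG for 6 of 6 genes in the duodenum and 6 of 6 in the jejunum (6 and 4 with an unadjusted limma p under 0.05), summing to 366 to 726 CPM after VSG and 109 and 259 after sham surgery in the duodenum and to 219.7 to 613 against 28.3 and 343 in the jejunum. Goblet cell markers were higher for 7 of 7 genes in both segments (1 and 4 with a p under 0.05). Their part in the P450 values was not tested. Liver markers, from the organ best known for these enzymes, summed to at most 30.4 CPM in any library and stromal markers to at most 48.7. Immune markers summed to 10.8 to 66.5 CPM after VSG and 3.78 and 7.93 after sham surgery in the duodenum, 24.3 to 42.1 against 17.04 and 20.1 in the jejunum and 12.4 and 26.7 against 0.140 and 5.47 in the ileum, higher after VSG without overlap in each segment. Pancreatic acinar markers reached 172.8 CPM in a duodenal VSG library and at most 13.4 in the jejunum and ileum. Their part in the P450 values was not tested either. Stem cell markers summed to 1882 to 3771 CPM in the duodenum after VSG and 2224 and 2548 after sham surgery, so they overlapped, and to 1500 to 2029 against 397 and 1919 in the jejunum, where sham replicate 1, the library with the highest P450 sum, was the low one. In the ileum they summed to 718 to 960 CPM after VSG and 268 to 470 after sham surgery. Markers of the ileum (Fabp6, Slc10a2, Fgf15 and Guca2a) summed to 2159 to 4372 CPM in ileal VSG libraries and 7898 to 9830 in ileal sham libraries. Neither ileal sum overlapped between the surgeries, and their part in the ileal P450 values was not tested.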

How the data were processed

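RNA-Seq values came from 16 libraries of GFP+ ISCs from 7 mice. Reads were single-end and 85 bases long per the labels. Per the study's methods, the authors aligned them with STAR 2.5.3a to mm10 and quantified them with Salmon 0.6.0, left out libraries with low mapping, and deposited counts normalized by DESeq2, a signal in normalized counts per gene, in a separate table for each segment. Only 37.8 to 49.0% of the values above 0 in a library were whole multiples of 1 read (within 0.01 read), so no count model was run. The authors' differential expression tables, which hold log2 fold changes, standard errors and p-values, were not used.

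The members and gene lists were chosen with earlier results of these data known. Each segment was fitted separately with limma 3.58.1 (R 4.3.3, variance trend) on log2(normalized count + 1), as VSG against sham without covariates, over genes with a mean above 10 and with Benjamini-Hochberg adjustment over all of them. Single genes also had a two-sided exact permutation test over the libraries (15 splits of 4 against 2, 6 of 2 against 2). The fit was tested on simulated data. Values per library were given for the 12 P450 genes most abundant in CPM and for up to 4 more in each segment, those with the smallest p among genes whose groups did not overlap. Between segments, and for marker sums, normalized counts were divided by the library total and scaled to 1000000 (CPM) and, between genes, by transcript length. Gene positions followed GENCODE M21 (GRCm38), which matched 48058 of 48440 identifiers, and promoters followed RefSeq (GRCm38.p6). Alternatives were other pseudocounts, filters, scalings and thresholds, no variance trend, a replicate block, leaving out each library, and, added after seeing the data, levels relative to the enterocyte markers and the jejunum without both libraries that stand apart. Python 3.11.15, numpy 2.4.6, pandas 2.3.3 and matplotlib 3.10.9 were used. Mice differ between VSG and sham libraries, so p-values measure the spread between mice.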

Additional observations from a re-analysis of the deposited data

Results flagged for a closer look

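In 7 of 56 groups of 4 VSG libraries, 1 library stood apart from the other 3 by Dixon's test. The test flags about 1 of 20 groups when values are independent and normally spread. These values were normalized counts, some of them at 0, and the groups of a segment shared their libraries. That rate is therefore no background for the 7 groups. In the duodenum, Cyp4f40 was at 1112 normalized counts in VSG replicate 1 and at 2453 to 2553 in the others, and Cyp2j9 was at 421 in that library and at 95.1 to 149.6 in the others. In duodenal VSG replicate 4, Cyp2c70 was at 59.6, with 0 to 1.25 in the others, and Cyp4a32 was at 112, with 40.1 to 51.5 in the others. In the jejunum, VSG replicate 1, the library with the high Fabp6 value, had 87.8 for Cyp2c66 against 314 to 355 in the others and 454 for Cyp2w1 against 0 to 25.6. Cyp4f15 was at 307 in jejunal VSG replicate 3 and at 0 to 44.5 in the others.

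For 2 genes every VSG library lay below the sham libraries in the upper segments and above them in the ileum. The log2 fold change of Cyp2b10 was -3.17 in duodenal, -4.72 in jejunal and 6.51 in ileal libraries, and these differ by 9.67 and 11.23. For Cyp2j9 the values were -1.37, -2.34 and 4.68, which differ by 6.05 and 7.02. These differences were not tested, and the ileal values rest on sham libraries listed at 0 (both for Cyp2b10, 1 of 2 for Cyp2j9), so their size depends on the pseudocount.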

How the results depend on the processing

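The number of genes called over all genes was small and moved with most settings. In the duodenum it went from 4 to 0 with a pseudocount of 0.5, with no filter on low values, with a mean above 50, with libraries scaled to the same total, with a replicate block and at an adjusted p under 0.05, to 10 with 10 as pseudocount, to 43 without the variance trend and to 5615 relative to the enterocyte markers. In the jejunum it went from 2 to 61 without the trend, to 1842 relative to the enterocyte markers, to 0 with the replicate block, to 48 without both libraries that stand apart and to 1 at an adjusted p under 0.05, and in the ileum from 0 to 463 without the trend and to 3 with 10 as pseudocount.

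Of the P450 genes, those lower with an unadjusted p under 0.05 went from 11 in the duodenum to 7 without the trend, 2 relative to the enterocyte markers and 5 with the replicate block, from 12 in the jejunum to 7, 2 and 3, with 3 also without both libraries that stand apart, and from 1 in the ileum to 0 without the trend and 0 relative to the enterocyte markers. Their median log2 fold change went to 0.063 in the duodenum and 0.026 in the jejunum relative to the enterocyte markers, and to -0.59 in the jejunum without both libraries. The test of jejunum minus duodenum went from 0 to 1 gene with a pseudocount of 10. Genes higher in the ileum went from 8 to 3 against the jejunum and from 12 to 6 against the duodenum in values as deposited.

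Leaving out 1 library at a time gave 0 to 259 genes called, 4 to 14 P450 genes with a p under 0.05 and a median of -1.27 to -0.86 in the duodenum, 1 to 2710, 4 to 14 and -2.0 to -0.78 in the jejunum, and 0 to 631, 0 to 3 and -0.43 to 0.22 in the ileum, and 0 to 1 gene for jejunum minus duodenum. The lowest duodenal and jejunal P450 counts of 4 were without sham replicate 1.

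Relative to the enterocyte markers the log2 fold change in the duodenum turned to 0.40 for Cyp4f14, 0.22 for Cyp4v3, 0.57 for Cyp3a13, 0.50 for Cyp4f16, 0.87 for Cyp2s1, 0.17 for Cyp2c65, 0.85 for Cyp4f40, 0.17 for Cyp2c68 and 0.41 for Cyp2d22, and in the jejunum to 0.50 for Cyp4f14, 0.078 for Cyp4v3, 0.056 for Cyp3a13, 0.82 for Cyp4f16, 0.71 for Cyp2s1, 0.49 for Cyp2c65, 1.13 for Cyp4f40 and 1.34 for Cyp4f13. Scaled to the same total, jejunal Cyp4f40 turned to 0.010 and Cyp4f13 to 0.22. Jejunal Cyp4f13 also turned to 0.061 with quantile normalization, 0.12 with the replicate block and 0.72 without both libraries that stand apart. Without 1 library, Cyp4f13 ranged from -0.42 to 0.51 in the duodenum and from -0.53 to 0.52 in the jejunum, and duodenal Cyp2c70 from -4.37 to 1.77. In the ileum the ranges were -0.44 to 0.90 for Cyp4v3, -0.54 to 0.051 for Cyp3a13, -0.43 to 0.054 for Cyp2j6, -0.067 to 0.22 for Cyp2c65, -0.52 to 1.32 for Cyp2c68, -2.88 to 1.10 for Cyp4b1 and -3.31 to 0.32 for Cyp3a11. Of all named-gene values, 735 kept direction and side of the thresholds, 38 reversed and 18 passed the thresholds newly. The causes of these shifts were not tested.

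VSG and sham libraries with the same number came from different mice, so the numbers do not pair the samples. Their deviations from the group means correlated at -0.049 and -0.026 in the duodenum and 0.054 and 0.010 in the jejunum. With 2 sham libraries, the deviations of the sham libraries mirror each other, so the values of a segment are not separate checks. The ileal groups shared no pair of numbers, so no replicate block was fitted there. Libraries of 10862195 to 63611021 implied reads limit the genes below about 50 normalized counts, and with 2 sham libraries in each segment 1 mouse can carry a result.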
